A study of Mus musculus with 120 samples.

Results

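Gene expression was compared between regions P and A of the mouse embryo at 7.0 days post coitum (E7.0), with 2 RNA libraries of P against 2 of A. The genes described are those with at least 10 counts in at least 2 of these 4 libraries, which were 12045 of the 23154 genes in the table. Both groups were taken from ICR mice, which are outbred, and the labels give no allele or agent. The labels give the regions only as the letters P and A, read here as posterior and anterior, and say neither how many embryos were pooled nor where the boundary between them lay. They do not say either whether the replicates of a region came from separate embryos, so at E7.0 the spread between replicates could in part be technical. Other embryonic libraries are drawn on for levels over time: P, AM and A at E7.5 and the undivided embryonic part (Epi) at E6.5, with 2 libraries each.

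Before gastrulation the epiblast is a single epithelial layer. At its posterior side the primitive streak forms, where cells turned by Nodal, Wnt, BMP and FGF signals lose epithelial contacts and move inwards as mesoderm and definitive endoderm. Anterior epiblast lies next to the anterior visceral endoderm, which secretes antagonists of Nodal and Wnt, and keeps an ectodermal course towards brain and surface ectoderm.

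Total counts were 15.3 and 9.13 M in the P libraries and 13.4 and 8.52 M in the A libraries, and between 5.15 and 17.1 M over the 18 embryo libraries that entered the fit. Rn45s, a ribosomal transcript, took between 0.267 and 1.12% of counts in these 4. Ranked levels correlated at 0.97 between the P replicates and at 0.951 between the A replicates. They correlated at 0.963 and 0.973 between P and A of replicate 1 and of replicate 2. Between P replicate 1 and A replicate 2 the value was 0.966, and between P replicate 2 and A replicate 1 it was 0.936. The regions thus resembled each other about as much as the replicates did. Levels are in CPM, which is counts per M of a library's TMM-scaled total, and differences as log2 fold changes of P minus A with their standard error. Counts of the Y-linked genes Ddx3y, Eif2s3y, Kdm5d and Uty summed to at least 786 in each of the 6 E7.0 libraries. At E6.5 and E7.5 they summed to between 1686 and 4284 in the 6 replicate 1 libraries and to at most 3 in the 6 replicate 2 libraries, so in those 6 of the 9 groups the replicates came from different embryos and the spread in the fit includes a difference in sex. In such bulk tissue, fewer cells of a type and less RNA per cell cannot be told apart.

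Grrp1 was the single gene that passed the adjusted threshold between the regions in the main fit over all genes tested, and it was higher in P. It is named for a protein rich in glycine and arginine and lies on chromosome 4 (134251102 to 134266196, GRCm38). Its level was 12.0 and 11.3 CPM in the P libraries and 0.578 and 0.56 CPM in the A libraries. Both P libraries stood far above both A libraries, and the replicates of each region lay close together. The log2 fold change was 4.33 ± 0.60 (edgeR's quasi-likelihood test, adjusted p = 0.0251), so 0.00830% of the genes tested passed, with 0 lower. Grrp1 overlaps the annotated noncoding gene Gm42325, and whether counting used strand is not given in the sources used here. The next smallest adjusted p was 0.195, for Cxx1c (log2 fold change 2.93), which was named after its value was seen. The call ended when the 6 extra-embryonic libraries were left out of the fit (adjusted p = 0.0736), when the 4 libraries were fitted alone (adjusted p = 0.0768) and without any 1 of the 4 (adjusted p between 0.143 and 0.77). Over all alternatives the fold change lay between 4.28 and 4.45. DESeq2, another count test, called 14 genes, all higher in P, among them Grrp1, Wnt8a, T, Mesp1, Frzb, Foxa2, Apln, Cdh11 and Tnfrsf19. With a block for the replicate number, edgeR's test also called Tnfrsf19 (adjusted p = 0.0141) and Frzb (adjusted p = 0.0243). Without a filter it called Cxx1c, Tnfrsf19 (adjusted p = 0.0122) and Wnt8a (adjusted p = 0.0321) beside Grrp1. A block in a fit of the 4 libraries alone, chosen after seeing the data, is described in the closing section. In the main edgeR fit no other gene named below passed the adjusted threshold at E7.0, so their values are given as measured differences.

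With an unadjusted p under 0.05 there were 386 genes (3.20% of those tested), 250 higher in P (2.08%) and 136 lower (1.13%). In 3779 genes (31.4%) the P and A libraries did not overlap, with P higher in 16.4% of genes and lower in 15.0%, and 47.7% of all fold changes were positive. These shares are the background for the counts of list members given below. With 2 libraries on each side an exact two-sided permutation test of a single gene cannot go below 0.333.

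The genes called largest below are ranked by fold change among genes with an unadjusted p under 0.05, no overlap and a mean of at least 3 log2 CPM. Genes outside that filter can have larger fold changes, such as Wnt3a among those higher in P and Hesx1 among those lower.

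The promoters of Grrp1 and of 3 genes with large positive differences are shown as examples of the windows searched for letters of known motifs. These 3, T, Mesp1 and Frzb, are among those that hold the TCF/LEF core. Windows searched without it, such as that of Apln, are not printed. Each runs from 250 bases before to 50 bases after the annotated start (RefSeq, GRCm38.p6), 5′ to 3′ on the gene's strand. Capitals mark CTTTGA, the core that TCF/LEF factors of Wnt signalling recognise, on either strand (TCAAAG when reversed). In Grrp1, which holds no such core, capitals mark the GATA letters AGATAA, reversed to TTATCT.
Grrp1 (chr4:134254057-134254356, minus strand): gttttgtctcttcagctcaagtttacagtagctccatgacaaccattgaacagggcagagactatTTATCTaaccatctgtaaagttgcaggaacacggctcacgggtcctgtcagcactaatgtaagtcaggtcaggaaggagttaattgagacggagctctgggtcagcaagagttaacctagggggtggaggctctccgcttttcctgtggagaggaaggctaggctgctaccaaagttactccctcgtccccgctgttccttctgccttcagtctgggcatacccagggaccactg
T (chr17:8434173-8434472, plus strand): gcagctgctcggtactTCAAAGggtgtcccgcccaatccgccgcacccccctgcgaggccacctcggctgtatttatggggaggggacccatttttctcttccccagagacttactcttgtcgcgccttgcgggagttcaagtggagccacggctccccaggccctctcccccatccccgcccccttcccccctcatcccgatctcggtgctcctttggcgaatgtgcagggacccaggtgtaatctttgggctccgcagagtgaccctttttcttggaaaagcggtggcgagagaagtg
Mesp1 (chr7:79793541-79793840, minus strand): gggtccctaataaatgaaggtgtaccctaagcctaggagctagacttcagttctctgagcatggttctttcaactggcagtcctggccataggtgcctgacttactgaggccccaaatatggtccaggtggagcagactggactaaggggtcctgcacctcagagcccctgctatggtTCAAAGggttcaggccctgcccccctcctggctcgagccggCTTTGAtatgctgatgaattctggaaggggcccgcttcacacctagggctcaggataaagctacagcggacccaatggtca
Frzb (chr2:80447347-80447646, minus strand): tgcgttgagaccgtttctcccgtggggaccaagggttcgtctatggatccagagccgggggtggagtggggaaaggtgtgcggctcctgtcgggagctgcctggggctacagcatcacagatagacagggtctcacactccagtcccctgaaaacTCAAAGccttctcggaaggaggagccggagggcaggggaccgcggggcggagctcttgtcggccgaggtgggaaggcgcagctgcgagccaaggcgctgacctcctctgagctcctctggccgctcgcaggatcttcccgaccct

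In all, 6 motifs were searched on both strands. Of the 10 genes with the largest positive differences, 5 had an entry, with 6 promoters, and the TCF/LEF core stood in 4 of these promoters, against 16% of 32851 promoters of the same length. Of the 10 genes with the largest negative differences, 5 had an entry, with 7 promoters, and the core stood in 1, a promoter of Kif1a. The promoter of Dkk1, which was also lower in P, held the core too. The E-box CAGGTG, read by Snail and other factors, was in 3 of 6 and 4 of 7 promoters of these genes and in 20.2% of all. The T-box letters GGTGTGA were in 1 of 6 and 1 of 7 and in 3.98% of all. FOXH1 letters (TGTGNATT, 3.6% of all), AGATAA (11.2%) and the OCT octamer ATGCAAAT (1.74%) were in none of the 13. No entry was matched for Mixl1, Lefty2, Fst, Aplnr and Cdh11. The TCF/LEF and GATA letters overlap no other motif searched in the windows printed, and a match describes letters, not binding.

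Transcription factors of the primitive streak were higher in P in nearly every case. Of 16, 12 were tested, all 12 with a positive fold change, 11 with both P libraries above both A libraries, and with a median log2 fold change of 2.26, against -0.02 over all genes tested. Tbx6, Cdx1, Cdx2 and Msgn1 had too few counts in the 4 libraries. The summed level of all 16 was 1100 and 1020 CPM in P and 171 and 179 CPM in A. T (Brachyury), the T-box factor that streak cells need to become mesoderm, had 51.0 and 119 CPM in P and 2.31 and 5.74 CPM in A. Both P libraries exceeded both A libraries, with replicate 2 higher in each region. The log2 fold change of T was 4.45 ± 1.10 (adjusted p = 0.999).

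Mixl1, a homeobox factor of mesendoderm, had 691 and 396 CPM in P and 58.7 and 12.6 CPM in A. Here replicate 1 was the higher one in each region, and the groups lay apart (3.92 ± 1.08). Mesp1, the factor that starts cardiac mesoderm, had 34.6 and 63.4 CPM in P and 3.18 and 5.74 CPM in A (3.47 ± 0.99). Eomes, the T-box factor upstream of Mesp1 and of endoderm, had 165 and 212 CPM in P and 54.8 and 68.7 CPM in A, a smaller difference of 1.61 ± 0.58. Sp5, a Wnt-induced zinc finger factor, differed by 2.96 ± 0.96, Evx1, a homeobox factor of the posterior streak, by 2.09 ± 0.85, and Tbx3 by 0.14 ± 1.07 with overlapping libraries.

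**Figure D1:**
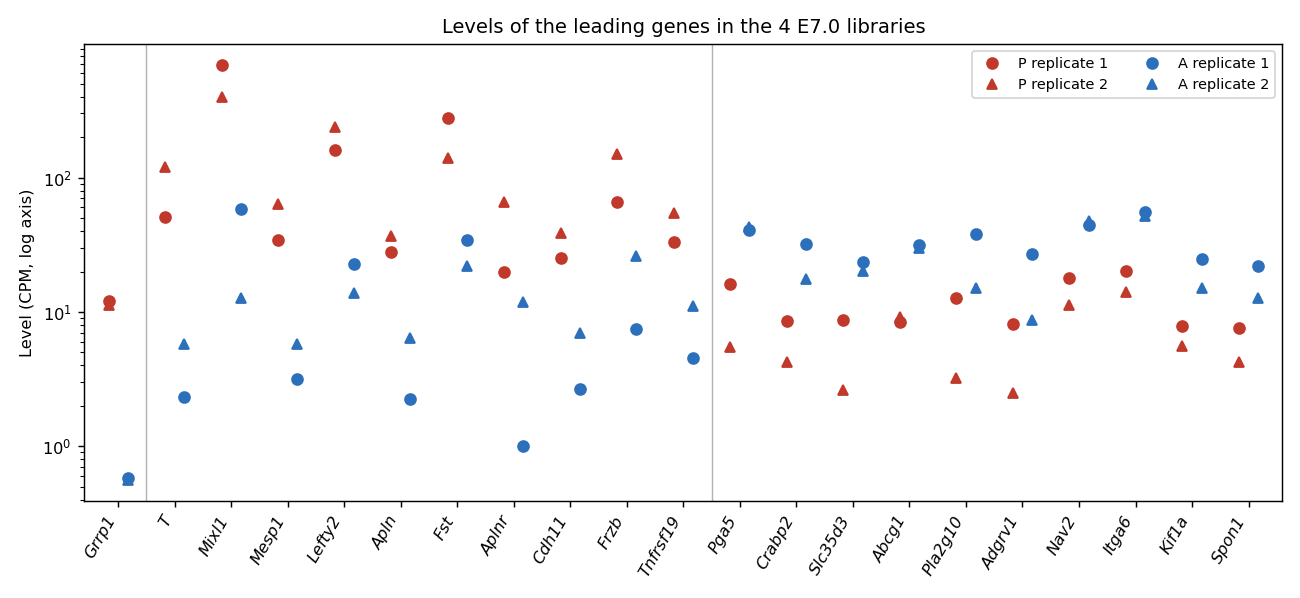
Level in CPM (log axis) of Grrp1, of the 10 genes with the largest positive and of the 10 with the largest negative differences, one point per E7.0 library (circles replicate 1, triangles replicate 2). In every gene drawn the P points lie apart from the A points, which the choice of genes required; the Grrp1 replicates nearly coincide, at 12.0 and 11.3 CPM in P and 0.578 and 0.56 CPM in A.

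Of 18 Nodal pathway genes tested, 3 lay wholly higher in P, the ligand, its co-receptor and a feedback inhibitor, and 0 wholly lower. Over all genes 16.4% lay wholly higher in P, a similar share. Nodal, the TGF-beta family ligand that induces the streak, had 32.3 and 18.3 CPM in P and 7.87 and 11.3 CPM in A (1.41 ± 0.74). Tdgf1 (Cripto), its co-receptor, had 850 and 1130 CPM in P and 193 and 198 CPM in A (2.34 ± 1.32). The groups did not overlap for either gene. Lefty2, a secreted Nodal inhibitor induced by Nodal itself, had 160 and 236 CPM in P and 22.9 and 13.9 CPM in A, with a log2 fold change of 3.42 ± 1.28. Its close copy Lefty1, made by the anterior visceral endoderm and later the midline, had 8.19 and 8.2 CPM in P and 33.2 and 5.04 CPM in A, and may share counts with it. The A libraries disagreed for Lefty1 and overlapped P (-1.23 ± 1.29).

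Smad2 and Smad3, which carry the signal to the nucleus, differed by 0.04 ± 0.26 and -0.04 ± 0.47, and the nuclear partner Foxh1 by 0.92 ± 0.92. Cer1, a secreted antagonist of Nodal, BMP and Wnt, had 48.6 and 385 CPM in P and 178 and 603 CPM in A. Replicate 2 was high in both regions, and the libraries overlapped (-0.85 ± 0.99). Of 20 Nodal pathway genes 18 were tested, 11 with positive and 7 with negative fold changes (median 0.15). Follistatin (Fst), which binds activins and is made in the streak, was among the 10 largest positive differences of the filtered genes with 276 and 139 CPM in P and 34.5 and 22.1 CPM in A (2.87 ± 0.86).

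Wnt genes divided by role. All 7 ligands tested had positive fold changes, 5 of them with P wholly higher, while 4 of 6 Frizzled receptors and 4 of 5 secreted antagonists lay wholly lower in P. Of 25 ligands, receptors and antagonists 23 were tested, 12 with positive and 11 with negative fold changes. The libraries did not overlap in 16 of them, P being higher in 8 and lower in 8. Wnt3, the ligand needed for streak formation, had 38.1 and 40.1 CPM in P and 6.21 and 10.4 CPM in A (2.25 ± 0.93). Wnt8a had 10.3 and 6.09 CPM in P and 0.578 and 0.28 CPM in A, with a log2 fold change of 4.14 ± 0.86 (adjusted p = 0.509). Wnt3a, the ligand that maintains the later streak, had 0.669 and 1.74 CPM in P and no count in A. Against a floor of 3 counts over the A libraries it was at least 8.43-fold higher in P, a floor that covers counting error only. The bound was 4.68 without P replicate 2, 2.87 without A replicate 1 and 5.56 without A replicate 2. Wnt5b differed by 2.46 ± 0.83 and Wnt5a, with overlapping libraries, by 0.57 ± 0.69.

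The receptors Fzd5 and Fzd8 were lower in both P libraries. Fzd8 had 0.892 and 1.62 CPM in P and 4.91 and 6.16 CPM in A (-2.16 ± 0.69), and Fzd5 had 4.29 and 2.98 CPM in P and 13.4 and 16.4 CPM in A (-2.02 ± 0.80). Dkk1, an antagonist that blocks the Wnt co-receptor, had 18.5 and 47.2 CPM in P and 47.9 and 86.7 CPM in A (-1.04 ± 0.42). The upper P value of Dkk1 lay just below the lower A value. Frzb, a secreted Frizzled-related protein, ran the other way, with 65.6 and 151 CPM in P and 7.51 and 26.0 CPM in A (2.71 ± 0.67).

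Genes that Wnt signalling switches on were mostly higher in P. Of 16 on the list 13 were tested, 12 of them positive and 10 without overlap, with a median of 1.40. Axin2, a feedback inhibitor, had 6.8 and 3.98 CPM in P and 1.73 and 1.96 CPM in A (1.56 ± 0.73). Lef1, a nuclear effector, had 33.2 and 40.1 CPM in P and 10.2 and 17.6 CPM in A (1.40 ± 0.57). Lgr5, a receptor for R-spondins, had 8.36 and 8.45 CPM in P and 0.506 and 1.4 CPM in A (3.21 ± 1.17). Lgr4, another R-spondin receptor, had a negative fold change with overlapping libraries, 84.8 and 44.7 CPM in P and 238 and 58.5 CPM in A (-1.20 ± 0.62, and 0.15 without A replicate 1). T and Sp5 stand in both the streak and the Wnt target list, so the counts of these lists are not independent.

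FGF ligands were divided: of 7 tested, Fgf3, Fgf8 and Fgf17 lay wholly higher in P, and Fgf4, Fgf5, Fgf10 and Fgf15 overlapped. Fgf8, which drives cells out of the streak, had 58.5 and 37.9 CPM in P and 8.96 and 14.1 CPM in A (2.07 ± 0.83). Fgf3 had 8.7 and 28.5 CPM in P and 0.65 and 5.04 CPM in A (2.77 ± 1.25), and Fgf17 differed by 2.28 ± 1.19. Fgf5, the ligand of the whole epiblast, had 247 and 175 CPM in P and 249 and 199 CPM in A, and the libraries overlapped (-0.09 ± 0.71). Fgf4, another ligand of the streak, had 1.51 and 5.1 CPM in P and 5.56 and 2.38 CPM in A (-0.32 ± 0.93). Fgf10 and Fgf15 differed by -0.04 ± 0.71 and 0.22 ± 0.67. Dusp6, a phosphatase induced by FGF signals, had 153 and 146 CPM in P and 90.1 and 87.9 CPM in A, the replicates of each region agreeing closely (0.75 ± 0.27). Of 21 FGF pathway genes tested, 14 were positive and 9 lay wholly higher in P, with a median of 0.30.

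BMP pathway genes were divided, with 10 of 18 tested positive and a median of 0.15. Bmp7 had 12.0 and 23.2 CPM in P and 0.433 and 6.02 CPM in A (2.53 ± 0.79, and 5.31 without A replicate 2). Bmp4, the ligand of extra-embryonic ectoderm, had 1.9 and 6.59 CPM in P and 0.867 and 5.32 CPM in A, replicate 2 being higher in both (0.49 ± 0.78). Msx1, a homeobox target of BMP, differed by 3.04 ± 1.42, and the targets Id2 and Id3 by -0.48 ± 0.48 and -0.49 ± 0.42 with overlapping libraries.

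Many genes of early mesoderm were higher in P, and later ones were uneven. Of 23 genes of nascent and lateral mesoderm 22 were in the table and 17 tested, 14 of them positive and 9 wholly higher in P, with a median of 1.18. Pdgfra, a receptor of migrating mesoderm, had 17.8 and 42.5 CPM in P and 2.82 and 10.8 CPM in A (2.18 ± 0.56). Aplnr, the apelin receptor of cardiac precursors, had 20.0 and 65.8 CPM in P and 1.01 and 11.8 CPM in A (2.80 ± 0.86), and its ligand Apln had 27.8 and 36.9 CPM in P and 2.24 and 6.44 CPM in A (2.94 ± 0.65). In both, P lay above A and replicate 2 above replicate 1. Gata4 and Tbx20, factors of heart and lateral mesoderm, overlapped between the regions (0.66 ± 0.81 and -0.17 ± 1.30). Nkx2-5 and Osr1 had no count in any of the 4.

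Of 16 genes of presomitic mesoderm, the source of somites, only 8 had enough counts to be tested, all positive, with a median of 2.05. The Notch ligand Dll3 had 7.08 and 27.7 CPM in P and 1.01 and 4.62 CPM in A (2.69 ± 0.96), and Mesp2 had 5.85 and 23.5 CPM in P and 0 and 2.52 CPM in A (3.66 ± 1.67). Hoxb1, the one gene tested of 20 Hox and Cdx genes, had 1.06 and 4.97 CPM in P and 0 and 0.28 CPM in A. Among 23 tested genes of Notch and Eph-ephrin signalling, used in segment boundaries and cell sorting, 18 were positive and 11 wholly higher in P (median 0.74). The receptor Epha2 had 17.9 and 12.4 CPM in P and 2.24 and 1.82 CPM in A (2.89 ± 0.80), while the ligand Efna5 was wholly lower in P (-0.86 ± 0.35).

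Genes of the epithelial to mesenchymal transition were divided. Snai1, which represses E-cadherin in the streak, had 14.0 and 14.3 CPM in P and 0.795 and 3.92 CPM in A (2.65 ± 0.89). Cdh1, E-cadherin itself, had 112 and 74.6 CPM in P and 127 and 124 CPM in A, a difference of -0.43 ± 0.30. Cdh2, N-cadherin, had 32.6 and 73.0 CPM in P and 9.03 and 42.3 CPM in A, so the libraries overlapped (1.05 ± 0.56). Cdh11, a cadherin of mesenchyme, had 25.4 and 38.5 CPM in P and 2.67 and 7.0 CPM in A (2.75 ± 0.69), and Epcam, an epithelial adhesion molecule, had 353 and 382 CPM in P and 595 and 699 CPM in A (-0.82 ± 0.29). Of 19 tested, 11 were positive (median 0.15).

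Organizer genes, which mark the anterior streak at this stage, included several with higher levels in P. Of 15, 10 were tested, 6 positive and 4 negative, with a median of 0.97. Of these 10, 5 lay wholly higher in P and 2 wholly lower. Otx2, Cer1 and Fgf5 are on this list with negative fold changes. The summed level of all 15 was 582 and 919 CPM in P and 683 and 1140 CPM in A, so it was not higher in P. Foxa2, a forkhead factor of endoderm and node, had 36.1 and 33.7 CPM in P and 4.55 and 10.1 CPM in A (2.27 ± 0.56). Gsc, a homeobox gene of the organizer, had 14.2 and 9.7 CPM in P and 2.1 and 2.94 CPM in A (2.25 ± 0.84), and Lhx1, a LIM factor, had 40.5 and 61.5 CPM in P and 11.6 and 22.7 CPM in A (1.58 ± 0.59). Chrd, the BMP antagonist chordin, differed by 2.36 ± 0.83, and Noto, a notochord factor, had 2.4 and 9.82 CPM in P and 0.144 and 0 CPM in A. Definitive endoderm genes as a whole were level, with 10 of 18 positive and a median of 0.11. Sox17, an endoderm factor, had 11.3 and 34.9 CPM in P and 2.53 and 39.1 CPM in A, replicate 2 being higher in both regions (0.16 ± 1.01).

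On the A side, many genes of anterior ectoderm and epiblast were higher. Hesx1, a homeobox gene of anterior endoderm and forebrain, had 1.95 and 0.621 CPM in P and 14.2 and 20.7 CPM in A, with no overlap and a log2 fold change of -3.66 ± 1.20. Sox2, a neural and pluripotency factor, had 5.46 and 3.73 CPM in P and 7.15 and 17.9 CPM in A (-1.42 ± 0.62), and the POU factor Pou3f1 had 14.9 and 3.23 CPM in P and 25.8 and 21.7 CPM in A (-1.37 ± 0.67). Otx2, the head homeobox gene, had 158 and 140 CPM in P and 210 and 223 CPM in A, a small difference with tight replicates (-0.54 ± 0.58). Of 25 anterior neural genes 14 were tested, 11 of them negative and 9 wholly lower in P (median -0.66). Six3, Lhx5, Rax and Pax6 had too few counts, and Sox1 and Fezf1 none.

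Of 22 genes of epiblast and primed pluripotency, all tested, 18 were negative and 13 wholly lower in P, with a median of -0.75. The de novo DNA methyltransferase Dnmt3a had 181 and 114 CPM in P and 328 and 242 CPM in A (-0.94 ± 0.31), and Dnmt3b had 1350 and 986 CPM in P and 1600 and 2440 CPM in A (-0.79 ± 0.45). The core factor Nanog went the other way, with 55.9 and 54.2 CPM in P and 23.8 and 26.0 CPM in A, the replicates agreeing closely (1.14 ± 0.50). Pou5f1 (Oct4) had 267 and 256 CPM in P and 118 and 311 CPM in A, so P lay between the A libraries (0.29 ± 0.76). Slc7a3, an arginine transporter, had 312 and 149 CPM in P and 883 and 610 CPM in A (-1.69 ± 0.87).

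The 14 genes of the anterior visceral endoderm were divided. Of these, 9 were negative and 6 wholly lower in P, while 5 were positive and 4 wholly higher (median -0.86). The list shares Gsc, Lhx1, Foxa2, Hesx1 and Otx2 with lists above. Cer1 and Lefty1, also on it, overlapped between the regions. Hhex, a homeobox gene of that tissue, had 5.74 and 9.94 CPM in P and 8.45 and 20.2 CPM in A, with overlap (-0.87 ± 0.54).

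**Figure D2:**
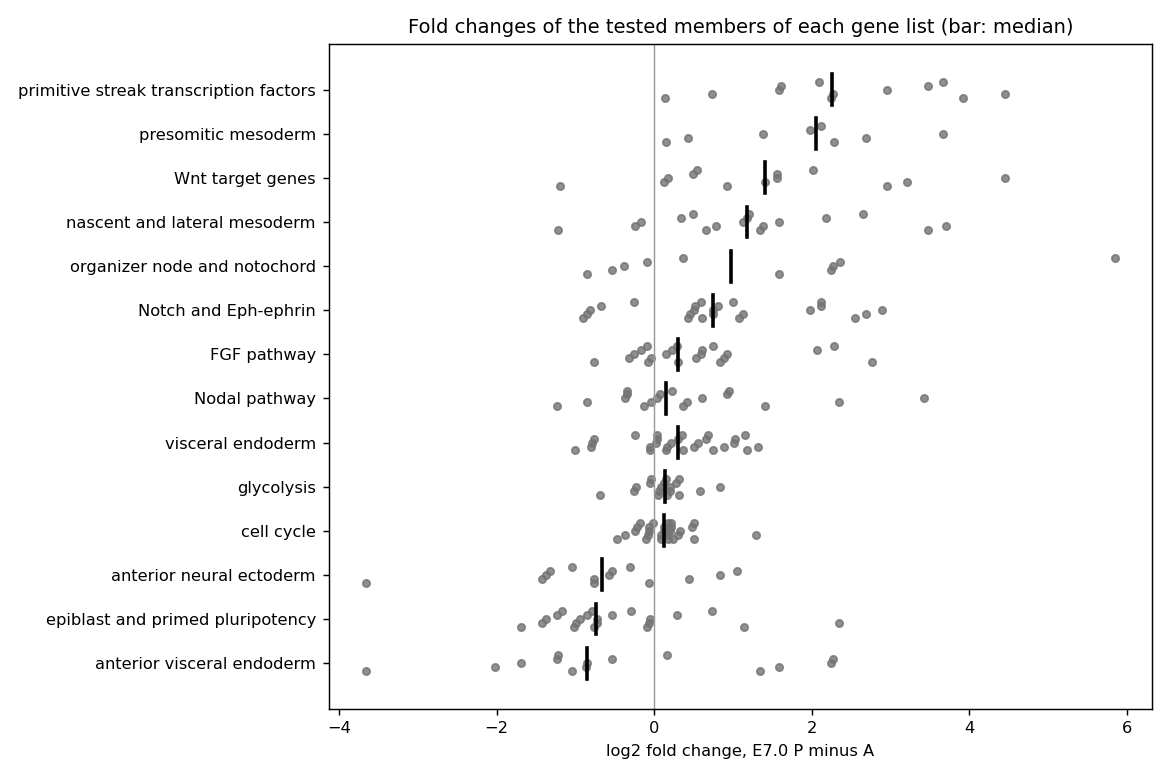
Log2 fold change of E7.0 P minus A (x axis) for each tested member of 14 gene lists, one point per gene and a bar at the list's median. The medians run from 2.26 for streak factors to -0.86 for the anterior visceral endoderm, against -0.02 over all genes tested, and several genes stand in more than 1 list.

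The 10 largest negative differences among genes with an unadjusted p under 0.05, no overlap and a mean of at least 3 log2 CPM were smaller than the 10 largest positive ones, between -1.94 and -1.53 against 2.51 to 4.45. This holds within that filter only. Outside it Hesx1 (-3.66), Fzd8 (-2.16) and Fzd5 (-2.02) were further below 0, and all fold changes tested ran from -7.01 to 6.77. Crabp2, which carries retinoic acid to its receptors, had 8.58 and 4.23 CPM in P and 32.1 and 17.5 CPM in A (-1.93 ± 0.58). Nav2, a retinoic acid-responsive neuron navigator, had 17.8 and 11.2 CPM in P and 44.2 and 47.3 CPM in A (-1.65 ± 0.42). The list of retinoic acid genes as a whole did not run lower in P. Of its 17 genes 13 were tested, 10 positive and 3 negative, with a median of 0.30. P lay wholly higher in 2 of them and wholly lower in 2. Itga6, a laminin receptor subunit of epithelia, had 20.1 and 14.0 CPM in P and 55.5 and 51.7 CPM in A (-1.64 ± 0.49). For Nav2 and Itga6 the A libraries nearly coincided. Abcg1, a cholesterol exporter, had 8.36 and 9.2 CPM in P and 31.7 and 30.1 CPM in A (-1.82 ± 0.71). Pga5, Slc35d3, Pla2g10, Adgrv1, Kif1a and Spon1 completed the 10, each with wholly lower P libraries by the rule that chose them. On the positive side, Tnfrsf19, a TNF receptor family member, had 32.9 and 54.7 CPM in P and 4.55 and 11.1 CPM in A (2.51 ± 0.49, adjusted p = 0.44).

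Markers of other tissues were examined beside these differences, and their part in them was not tested. Visceral endoderm, which wraps both regions, summed over 28 genes to 4110 and 9600 CPM in P and 3340 and 9510 CPM in A. Replicate 2 was higher than replicate 1 in both regions. In P minus A 20 of 27 tested members were positive, 8 wholly higher in P and 2 wholly lower, with a median of 0.30 and none called. Afp, alpha-fetoprotein, had 219 and 323 CPM in P and 140 and 197 CPM in A, while Ttr, transthyretin, had 187 and 394 CPM in P and 256 and 748 CPM in A. Glycolysis genes showed the same replicate difference, with sums over 19 genes of 16400 and 36800 CPM in P and 11500 and 38100 CPM in A (median 0.14). Cell cycle genes were even, at 7650 and 8780 CPM in P and 7510 and 8650 CPM in A (median 0.13).

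The trophoblast genes Elf5 and Wnt7b were at or near 0, with at most 0.14 CPM in any of the 4 libraries, and the 22 genes of extra-embryonic ectoderm summed to 667 and 1020 CPM in P and 467 and 866 CPM in A, some of them genes that the epiblast and streak also express. The 20 genes of maternal decidua and blood summed to 130 and 205 CPM in P and 157 and 169 CPM in A, and 9 of them, among them the adult globins, are listed at 0 in all 4. Eno1, a glycolytic gene that cells in general use, is also listed at 0 in all 4, so a listed 0 need not mean absent RNA. Of 16 immediate early genes tested, 13 were positive with a median of 0.52. P lay wholly higher in 6 of the 16 and wholly lower in 0, where 16.4% of all genes lay wholly higher. Immediate early genes respond quickly to handling and to growth factors, and the part of either was not tested. Ier2, one of them, had 59.8 and 42.4 CPM in P and 18.6 and 30.1 CPM in A (1.08 ± 0.37). Blood and vessel genes summed to 44.6 and 43.8 CPM in P and 50.7 and 42.7 CPM in A, and 8 tested germ cell genes were evenly divided, 4 each way.

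**Figure D3:**
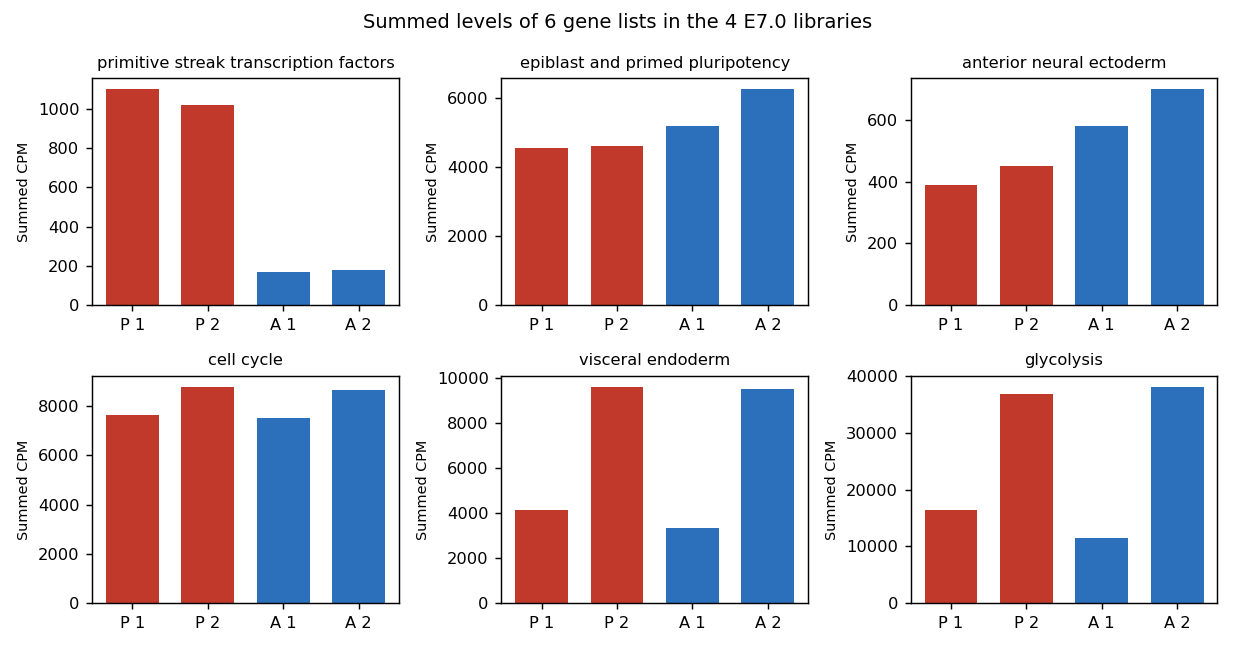
Summed level in CPM of all members of 6 gene lists in each E7.0 library (bars from 0; P left, A right). Streak factors separate the regions, 1100 and 1020 CPM in P against 171 and 179 CPM in A, while visceral endoderm and glycolysis genes separate replicate 2 from replicate 1 in both.

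The same genes were then followed at E7.5, in libraries that share no sample with the E7.0 comparison. These libraries entered the same fit, so their spread had a part in the p-values that chose the genes below. Genes with close E7.5 replicates can be favoured by that choice, so the counts without overlap at E7.5 are not independent of it. Of the 250 genes higher in P at E7.0 with an unadjusted p under 0.05, 165 (66.0%) were also positive at E7.5, where 52.1% of all genes tested were, and in 43.6% of the 250 P lay wholly higher again. Of the 136 lower genes 103 (75.7%) were negative at E7.5, against 47.9% of all, and in 48.5% of the 136 P lay wholly lower again. Across all 12045 genes the fold changes of the stages correlated weakly (Pearson's r 0.23, Spearman's rho 0.08), and genes are not independent replicates. All 10 genes with the largest positive differences were positive again, 9 of them without overlap, where 18.1% of all genes lay wholly higher in P. Of the 10 largest negative ones 9 were negative again and 8 wholly lower (17.5% of all genes), the exception being Pga5. At E7.5 itself 32 genes (0.266%) passed, 28 higher and 4 lower, and none of them was among these 20, while 5.75% of genes were higher at an unadjusted p under 0.05. With total counts as the scaling 9 passed, 5 higher and 4 lower. The count at E7.5 was 0 without A replicate 1, 6 without P replicate 2 and 86 without A replicate 2.

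Mixl1 had 163 and 125 CPM in E7.5 P and 0.651 and 1.21 CPM in E7.5 A, and T had 264 and 447 CPM in E7.5 P and 3.85 and 45.6 CPM in E7.5 A. The mean level of Mixl1 was 179 ± 39.5 CPM in E6.5 Epi, 544 ± 209 in E7.0 P and 144 ± 27.2 in E7.5 P, while T had 24.2 ± 10.5, 85.2 ± 48.4 and 355 ± 129 CPM in the same order (SD, n = 2 each). Mixl1 thus stood highest at E7.0 and T at E7.5, and differences in level between stages were not tested. Otx2 had 4.77 and 3.56 CPM in E7.5 P and 137 and 93.2 CPM in E7.5 A. Grrp1 had 4.86 and 8.97 CPM in E7.5 P and 4.86 and 9.76 CPM in E7.5 A, with complete overlap (-0.08 ± 0.50). For Grrp1 the difference of P minus A between E7.5 and E7.0 was -4.41 ± 0.77, which did not pass (adjusted p = 0.0747).

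**Figure D4:**
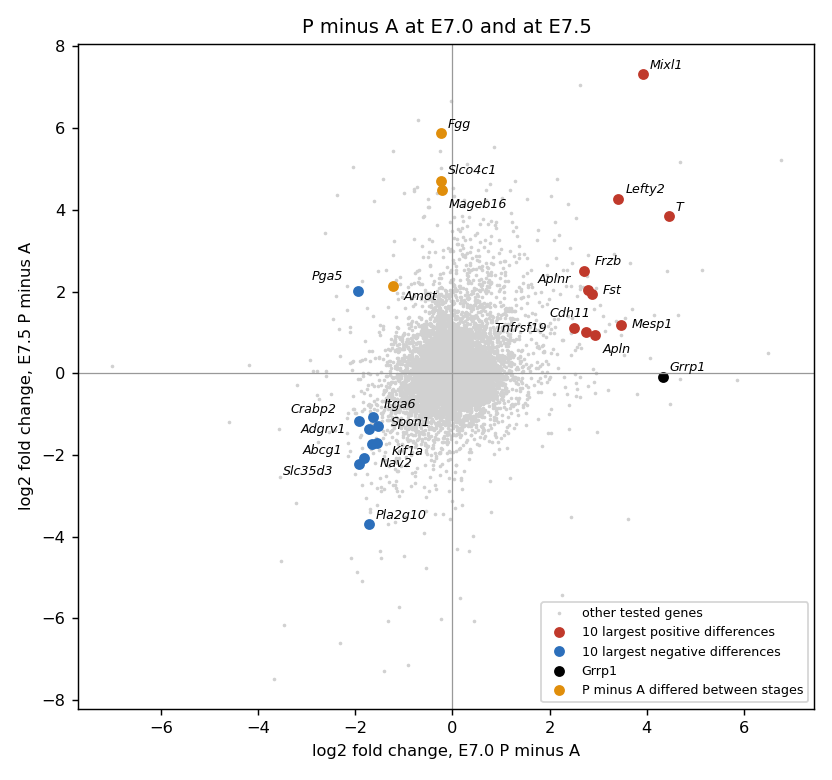
Log2 fold change of P minus A at E7.0 (x axis) and at E7.5 (y axis) for every gene tested, with the genes named in the text coloured. Positive and negative leading genes fall in the same-sign quadrants except Pga5; Grrp1 lies at 4.33 and -0.08.

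The difference of P minus A between the stages passed for 4 of 12045 genes (0.0332%), and in each it was more positive at E7.5. Over all genes 53.2% of these differences were positive, and 4.32% had an unadjusted p under 0.05 (1.65% of genes more negative at E7.5). With total counts as the scaling 0 genes passed (1096 at an unadjusted p under 0.05, edgeR), and with DESeq2 22. None of the 4 genes passed in a fit of the compared libraries alone, or without E7.0 P replicate 1, E7.0 P replicate 2, E7.0 A replicate 1 or E7.5 A replicate 1. Mageb16 alone passed without E7.0 A replicate 2 or E7.5 P replicate 2, and 17 genes, these 4 included, passed without E7.5 A replicate 2. Amot, the scaffold angiomotin that binds YAP in the Hippo pathway, was lower in P at E7.0 and higher in P at E7.5. It had 197 and 182 CPM in E7.0 P and 464 and 422 CPM in E7.0 A, then 95.6 and 121 CPM in E7.5 P and 16.9 and 32.4 CPM in E7.5 A. The replicates did not overlap at either stage, and the difference between stages was 3.36 ± 0.49 (adjusted p = 0.0237). Fgg, the fibrinogen gamma chain, had 13.5 and 16.9 CPM in E7.0 P and 21.0 and 14.7 CPM in E7.0 A, which overlap, and 7.02 and 14.6 CPM in E7.5 P and 0 and 0.432 CPM in E7.5 A. Mageb16 and Slco4c1 also overlapped at E7.0. Mageb16 had 10.6 and 16.1 CPM in E7.5 P and 0.501 and 0.691 CPM in E7.5 A, and Slco4c1, an organic anion transporter, had 6.76 and 14.8 CPM in E7.5 P and 0.25 and 0.605 CPM in E7.5 A. Fgg is a visceral endoderm product, and the visceral endoderm list had a median of 3.28 at E7.5 against 0.30 at E7.0; its part in these calls was not tested.

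**Figure D5:**
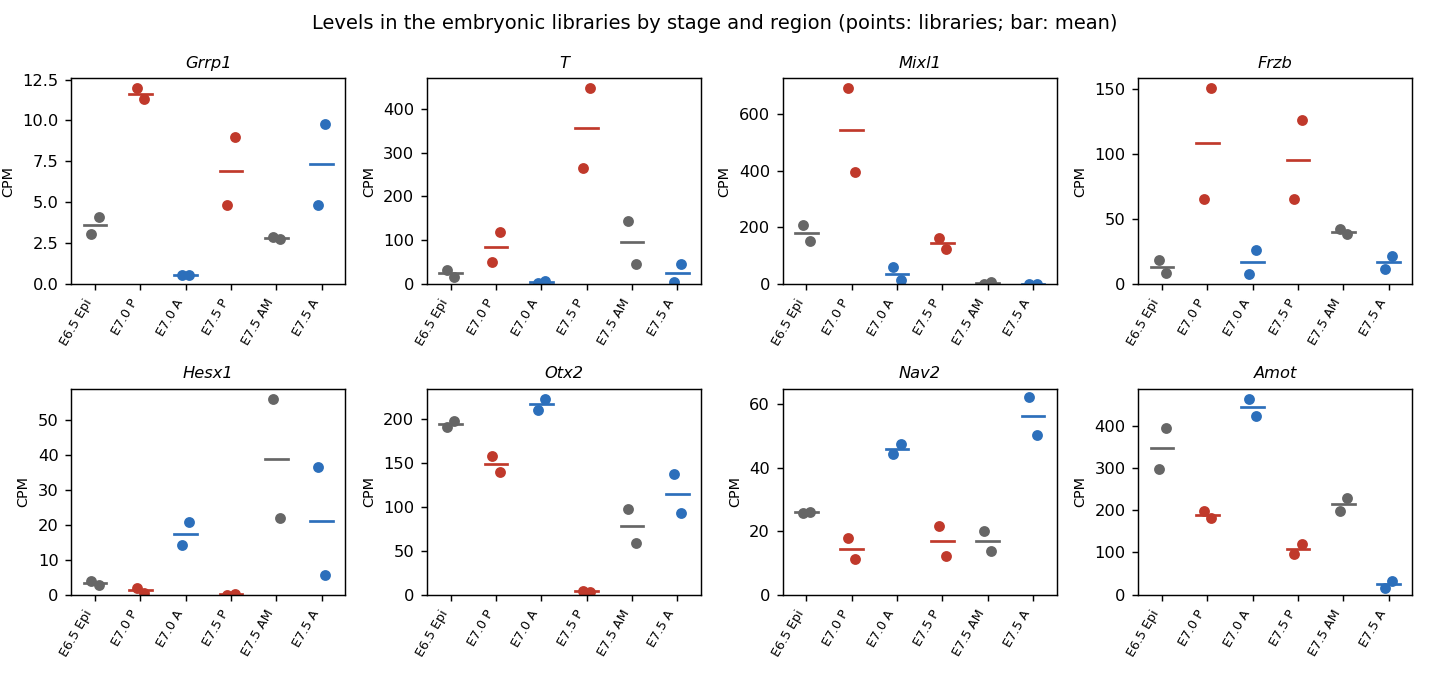
Level in CPM of 8 genes in the embryonic libraries, with a point per library and a bar at the mean, ordered by stage and, within a stage, P, AM and A. Amot is lower in P than in A at E7.0 and higher in P at E7.5, and Grrp1 differs between P and A at E7.0, with 11.6 and 0.569 CPM on average, and overlaps at E7.5.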

How the data were processed

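Per the labels' protocols, embryo tissue was lysed in guanidine thiocyanate, and Nextera XT, which cuts and tags DNA with a transposase, gave the libraries. The authors deposited 1 table of raw counts, with a whole number for each gene and library. Per the submitters' processing notes, the build was mm10 and the tools included TopHat2 2.0.9, CASAVA 1.8 and BWA. Which program counted the reads, on which gene models and with or without strand, is not given here. Columns were matched to samples by name, and 6 columns that matched no sample were not used. The table of cultured cells was not used.

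The test was edgeR's quasi-likelihood test, on genes with at least 10 counts in 2 of the 4 E7.0 P and A libraries (version 4.0.16 under R 4.3.3, with a robust fit and TMM scaling), and p-values were adjusted by Benjamini-Hochberg with a threshold of 0.05. All 18 embryo libraries, 9 groups of 2, entered 1 fit without a block. The standard error is the size of the log2 fold change over the square root of F. The same fit gave P minus A at E7.5 and the difference between the stages. A gene with no count in a group was set at a floor of 3 counts over that group. Chi-square values of replicate counts were 73 and 110 per degree of freedom in P and A, so no library is a copy. Positions are from RefSeq (GRCm38.p6, the assembly of mm10), and all 475 genes looked up had one, 2 by a synonym.

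The members and gene lists were chosen with earlier results of these data known, so lists are described and not tested. Named genes were those that passed, the 10 largest differences each way with an unadjusted p under 0.05, no overlap and a mean of at least 3 log2 CPM (prior count 2), from each list up to 8 members with the smallest p and 4 others in list order, 21 core genes and genes called between the stages. Members with too few counts are named only as such. On simulated counts of the same 12045 genes, sets of 50 with levels above 8 CPM were changed 2-, 4-, 8- and 16-fold in E7.0 P. The test called 1, 34, 49 and 50 of them, and 5 of 11845 unchanged genes. All sets were changed in 1 simulation, which eases the adjusted threshold, and no effect shared by a replicate number was simulated. These shares thus need not hold for the data, where T (log2 fold change 4.45) did not pass. Alternatives were DESeq2 1.42.0, other scalings and filters, fewer libraries, a block for the replicate number and each replicate left out in turn.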

Additional observations from a re-analysis of the deposited data

Results flagged for a closer look

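The difference of P minus A between E7.5 and E7.0 passed the test for 4 genes (edgeR's quasi-likelihood test), and each was more positive at E7.5. The differences between the stages were 3.36 ± 0.49 for Amot (adjusted p = 0.0237), 6.12 ± 0.99 for Fgg (adjusted p = 0.0389), 4.71 ± 0.60 for Mageb16 (adjusted p = 0.00817) and 4.94 ± 0.79 for Slco4c1 (adjusted p = 0.0389), all on the log2 scale. For Fgg, Mageb16 and Slco4c1 the E7.0 libraries overlapped, and the E7.5 A libraries held at most 0.691 CPM. For Amot the regions lay apart at both stages, in opposite directions. With total counts as the scaling 0 genes passed in edgeR's test, with 1096 at an unadjusted p under 0.05, and none of the 4 passed without E7.0 P replicate 1, E7.0 P replicate 2, E7.0 A replicate 1 or E7.5 A replicate 1.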

How the results depend on the processing

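At E7.0 edgeR called 1 gene. DESeq2 called 14, no filter 4 and the replicate block 3, all of them higher in P, and 0 were called without the 6 ExE libraries or with the 4 libraries alone (636 and 473 at an unadjusted p under 0.05). Leaving out 1 library gave 0 in each case, with 200 to 902 genes at an unadjusted p under 0.05. Chosen after seeing the data, a replicate block in a fit of the 4 libraries alone, which leaves 1 residual degree of freedom, called 260, 180 higher and 80 lower, including 62 of the 92 tested genes named and all 14 called by DESeq2. The labels do not say that replicate numbers mark shared embryos. The differences between replicates 1 and 2 correlated across genes at 0.42 between P and A, over only 2 pairs. At E6.5 and E7.5 replicate numbers also went with the sex of the embryos, and at E7.0 all 6 libraries held Y-linked counts. Whether P and A of a number shared embryos or a batch was not tested. The main fit left the numbers unpaired, so any effect shared by a replicate number stayed in its spread. The number of genes called depends on this choice. The cause of these differences in calls was not tested.

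At E7.5 32 genes passed, against 236 with DESeq2, 9 with total counts, 63 without a filter, 50 without ExE, 132 with the replicate block, 17 with the 4 libraries alone and 0 to 86 with 1 library left out (86 without A replicate 2, 0 without A replicate 1, 6 without P replicate 2). For the difference of stages 4 passed, against 22 with DESeq2, 0 with total counts, 7 without a filter, 1 with the compared libraries alone (more negative at E7.5 and none of the 4) and 0 to 17 with 1 library left out. Total counts moved the median of all genes from -0.02 to 0.11 at E7.0 and from 0.03 to -0.44 at E7.5.

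Among the genes named, 22 of 92 reversed under some setting, and in all 22 the P and A libraries overlapped. With 1 library left out the log2 fold changes ran from -0.62 to 1.32 for Tbx3, -0.04 to 0.14 for Smad2, -0.39 to 0.39 for Smad3, -2.02 to 0.70 for Lefty1, -3.01 to 0.28 for Cer1 and -0.29 to 1.13 for Wnt5a. They ran from -1.88 to 0.15 for Lgr4, -0.36 to 0.14 for Fgf5, -1.41 to 0.44 for Fgf4, -0.37 to 0.40 for Fgf10, -0.29 to 1.04 for Fgf15, -0.62 to 2.22 for Bmp4, -1.17 to 0.09 for Id2, -0.98 to 0.26 for Id3 and -3.16 to 1.79 for Tbx20. For Gata4 the range was -0.02 to 1.61, for Sox17 -0.86 to 3.18, for Pou5f1 -0.25 to 1.15, for Ttr -1.42 to 0.18, for Fgg -0.47 to 0.04, for Mageb16 -0.48 to 0.10 and for Slco4c1 -0.68 to 0.13. Total counts gave 0.09 for Smad3, 0.06 for Fgf5 and 0.04 for Fgf10, the replicate block gave 0.13 for Fgf10, and the block of the 4 libraries gave 0.01 for Smad3 and for Fgf10. With 1 library left out 52 of the 92 fold changes moved by over 1.5 times, among them Aplnr (1.70 to 5.38), Bmp7 (1.54 to 5.31), Mesp2 (2.33 to 10.44), Msx1 (1.75 to 7.83), Evx1 (1.19 to 4.12), Cdh2 (0.32 to 2.54) and Foxh1 (0.25 to 2.17), each highest without A replicate 2. The medians of the streak, presomitic, Wnt target, epiblast, anterior neural and anterior visceral endoderm lists kept their sign in all 15 settings, but 12 of 27 list medians moved by over 1.5 times in fold with 1 library left out. The ranges were 1.90 to 3.07 for the streak, 1.07 to 2.98 for presomitic mesoderm, 0.68 to 2.40 for nascent mesoderm, 0.63 to 1.95 for the organizer and, with smaller moves, -1.20 to -0.31 for anterior visceral endoderm, 0.25 to 1.21 for Notch and Eph-ephrin and 0.25 to 0.96 for immediate early genes. The median of the BMP list turned negative in 3, and those of the Wnt ligand and receptor, definitive endoderm and glycolysis lists in 2 each. The medians of the visceral endoderm, retinoic acid and cell cycle lists turned negative in 1 each.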
